A study of Mus musculus with 24 samples.

Results

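The genes described here are 10 members of the semaphorin system in mouse CD4+ T cells: 6 semaphorins (Sema7a, Sema4a, Sema4b, Sema4c, Sema4d and Sema4f) and 4 receptors (Plxnc1, Plxnb2, Nrp1 and Cd72). They were found by matching their symbols to the Ensembl identifiers of the count table, which gave 10 of 54446 rows, and all 10 passed the filter on low counts. They were selected on their levels over both genotypes and all 4 times in these same libraries, so those levels are a description. The RNA came from splenic CD4+ T cells of 6 C57BL6 mice, 3 of them wild type (WT, mice 1, 3 and 4) and 3 lacking Aim2 in all tissues (Aim2-/-, mice 1, 2 and 4), in libraries made from polyadenylated RNA. Cells of each mouse were sequenced unstimulated (0 h) and after 3, 6 and 24 h with anti-CD3/CD28, antibodies against the T cell receptor complex and a co-stimulatory receptor, so that 24 libraries formed 8 groups of 3. All groups shared the background strain, the culture medium and a negative immunomagnetic selection, which leaves regulatory, memory and naive CD4+ T cells mixed, and the ages of the mice were not given in the sources used here.

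Semaphorins are secreted or membrane-bound proteins named for the sema domain, first known as guidance cues for growing axons. They signal mainly through plexins, whose intracellular part acts on small GTPases, and neuropilins serve as co-receptors. In the immune system SEMA7A, a GPI-anchored protein on activated T cells, binds plexin C1 and the integrin VLA-1, SEMA4D (CD100) binds plexin B1, plexin B2 and the B cell molecule CD72, and SEMA4A binds neuropilin-1 on regulatory T cells. NRP1 is used as a marker of thymus-derived regulatory T cells.

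Library totals lay between 19715161 and 21627018 counts, and levels are given as CPM, the usual depth-normalised count, with library sizes scaled by TMM factors. At this depth 3 counts in a library, taken as the detection floor, equal 0.129 to 0.155 CPM, which covers counting error only. At 0 h the Aim2 level of the mouse labelled WT 1 was 21.5 CPM, close to the 15.7 to 20.1 CPM of the Aim2-/- mice and far below the 75.0 and 67.5 CPM of WT mice 3 and 4. Its level was also low at 3, 6 and 24 h (17.0, 11.5 and 5.57 CPM), so the main genotype differences are given with and without this mouse. The CD4 T cell markers were high in all groups: the 7 genes summed to 2938 to 4486 CPM. Myeloid markers differed between the genotypes: the 10 genes summed to 41.2 to 71.3 CPM in the WT mice at 0 h and to 120, 206 and 410 CPM in Aim2-/- mice 2, 4 and 1. The 10 B cell markers summed to 11.3 to 16.4 CPM in WT and 19.1 to 52.9 CPM in Aim2-/- cells at 0 h.

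To compare genes with each other, CPM was divided by the merged exon length in kb. In resting WT cells Sema4d was the highest of the 10, at 26.8 ± 2.03 CPM per kb (SD, n = 3). Sema4b followed at 9.83 ± 0.969 and Sema4a at 8.63 ± 1.31 CPM per kb, and the ranges of these neighbours overlapped. Cd72, Plxnc1, Nrp1, Sema4c, Sema7a and Sema4f lay between 4.01 and 2.13 CPM per kb, each overlapping its neighbour in this order, and Plxnb2 stood below all of them at 0.607 ± 0.0597 CPM per kb. At 3 h Sema7a headed the list at 166 ± 41.6 CPM per kb in WT cells, above the 35.2 ± 5.8 CPM per kb of Sema4d with no overlap. At 24 h Sema4d was again the highest, with 27.3 ± 2.06 CPM per kb against 21.2 ± 2.23 for Sema7a. The same 3 genes, Sema4d, Sema7a and Sema4b, also held the first 3 places in Aim2-/- cells at 24 h, in the same order of means. There the ranges of Sema4d (24 to 30.3 CPM per kb) and Sema7a (21.9 to 25.3 CPM per kb) overlapped.

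The make-up of the semaphorin RNA changed with these levels. Of the summed CPM per kb of 20 semaphorin genes, Sema4d made up 48.9% ± 2.86 (SD, n = 3) in resting WT cells and Sema7a 3.92% ± 0.995. At 3 h Sema7a made up 72.0% ± 7.28 and Sema4d 15.8% ± 4.72. At 24 h Sema4d held 36.7%, Sema7a 28.5% and Sema4b 22.6% of the sum. The sum itself was 54.7, 228, 184 and 74.5 CPM per kb at 0, 3, 6 and 24 h in WT cells, and 59.1, 183, 127 and 77.6 CPM per kb in Aim2-/- cells.

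**Figure D1:**
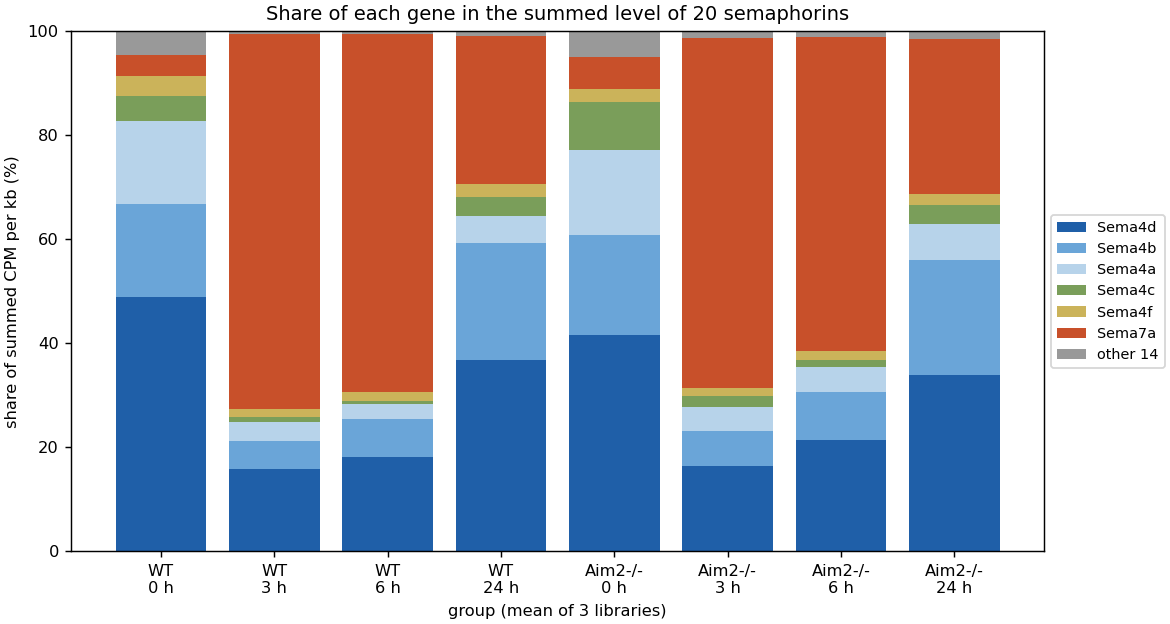
Stacked bars give the mean share (%) of each semaphorin gene in the summed CPM per kb of 20 semaphorin genes, for the 8 groups of 3 libraries. Sema4d holds 48.9% at 0 h in WT and Sema7a 72.0% at 3 h; the grey segment joins the other 14 genes.

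Sema7a (ENSMUSG00000038264, chromosome 9, 57940112 to 57962865, plus strand, GRCm38) had the steepest time course of the 10 genes. The 250 bases before its start site are shown because this was the member with the largest change, together with the same stretch of Plxnc1, which encodes its plexin receptor, and of Sema4c, which moved the other way in the early hours. Sequences are from RefSeq (GRCm38.p6) and are written on the strand of the gene, 5′ to 3′, ending at the base before the start site; Sema7a covers chr9:57939862-57940111 (plus), Plxnc1 chr10:94944846-94945095 (minus) and Sema4c chr1:36558382-36558631 (minus). Capitals mark matches to GGAAA, the core bound by NFAT factors, to the AP-1 motif TGANTCA and to the EGR motif GCGNGGGCG, each searched on both strands.

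Sema7a: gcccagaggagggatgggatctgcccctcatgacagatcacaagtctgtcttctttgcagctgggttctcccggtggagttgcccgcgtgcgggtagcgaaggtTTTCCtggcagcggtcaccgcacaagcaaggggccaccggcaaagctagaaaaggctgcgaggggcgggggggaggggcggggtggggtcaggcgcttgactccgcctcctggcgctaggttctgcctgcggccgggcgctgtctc

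Plxnc1: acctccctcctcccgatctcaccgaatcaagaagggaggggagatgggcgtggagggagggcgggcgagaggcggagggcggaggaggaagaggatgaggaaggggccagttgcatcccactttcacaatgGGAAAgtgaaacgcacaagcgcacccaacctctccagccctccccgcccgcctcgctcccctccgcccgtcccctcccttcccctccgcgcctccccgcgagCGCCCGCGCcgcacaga

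Sema4c: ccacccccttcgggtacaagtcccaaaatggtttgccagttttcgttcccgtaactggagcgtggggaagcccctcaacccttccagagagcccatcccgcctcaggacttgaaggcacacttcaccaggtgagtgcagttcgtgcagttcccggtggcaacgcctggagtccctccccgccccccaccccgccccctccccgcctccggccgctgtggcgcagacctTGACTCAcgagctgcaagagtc

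The Sema7a stretch holds 1 match, the NFAT core on the other strand, at 146 to 142 bases before the start site. The Plxnc1 stretch holds GGAAA and, 17 to 9 bases before the start, CGCCCGCGC, an EGR match on the other strand. The Sema4c stretch holds the AP-1 match TGACTCA at 22 to 16 bases before the start. In the whole windows of 250 bases before to 50 after the start, GGAAA was found in 15 of the 18 windows of the 10 genes and in 61.3% of all 32851 windows of the reference table. TGANTCA was found in 2 of the 18, of Sema4c and Sema4d, and in 7.81% of all windows, and GCGNGGGCG in 2, of Plxnc1 and Plxnb2, and in 5.55%. The CRE motif TGACGTCA (1.79% of all windows) and a kappa B type motif, which contains the NFAT core (1.63%), were found in none of the 18. These are letter matches in short windows only.

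In WT mice 1, 3 and 4 Sema7a read 9.65, 6.20 and 5.57 CPM at 0 h and 551, 682 and 407 CPM at 3 h. At 6 h the 3 libraries stood close together at 429, 426 and 401 CPM, and at 24 h they were back to 76.6, 62.1 and 71.5 CPM. In Aim2-/- mice 1, 2 and 4 the gene read 15, 10.3 and 11.2 CPM at 0 h, 195, 485 and 596 CPM at 3 h and 172, 312 and 285 CPM at 6 h. Every stimulated library was thus above every resting one, and Aim2-/- mouse 1 had the lowest value of all at 3 and at 6 h. It was the mouse with the highest myeloid markers. It also had the lowest sum of 5 activation genes (Il2ra, Myc, Il2, Cd69 and Egr2), 1205 CPM at 3 h and 1599 CPM at 6 h. The part of either in the Sema7a values was not tested. Against its own 0 h value each of the 6 mice was higher at 3 h, by 13-fold to 110-fold. The fitted log2 change from 0 to 3 h was 6.26 ± 0.39 (SE) in WT cells, 76.4-fold, and 5.13 ± 0.36 in Aim2-/- cells, 34.9-fold. From 6 to 24 h the log2 change was -2.58 ± 0.32 in WT and -1.75 ± 0.31 in Aim2-/- cells. These changes with time are given as a description, since the genes were chosen with such values known.

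**Figure D2:**
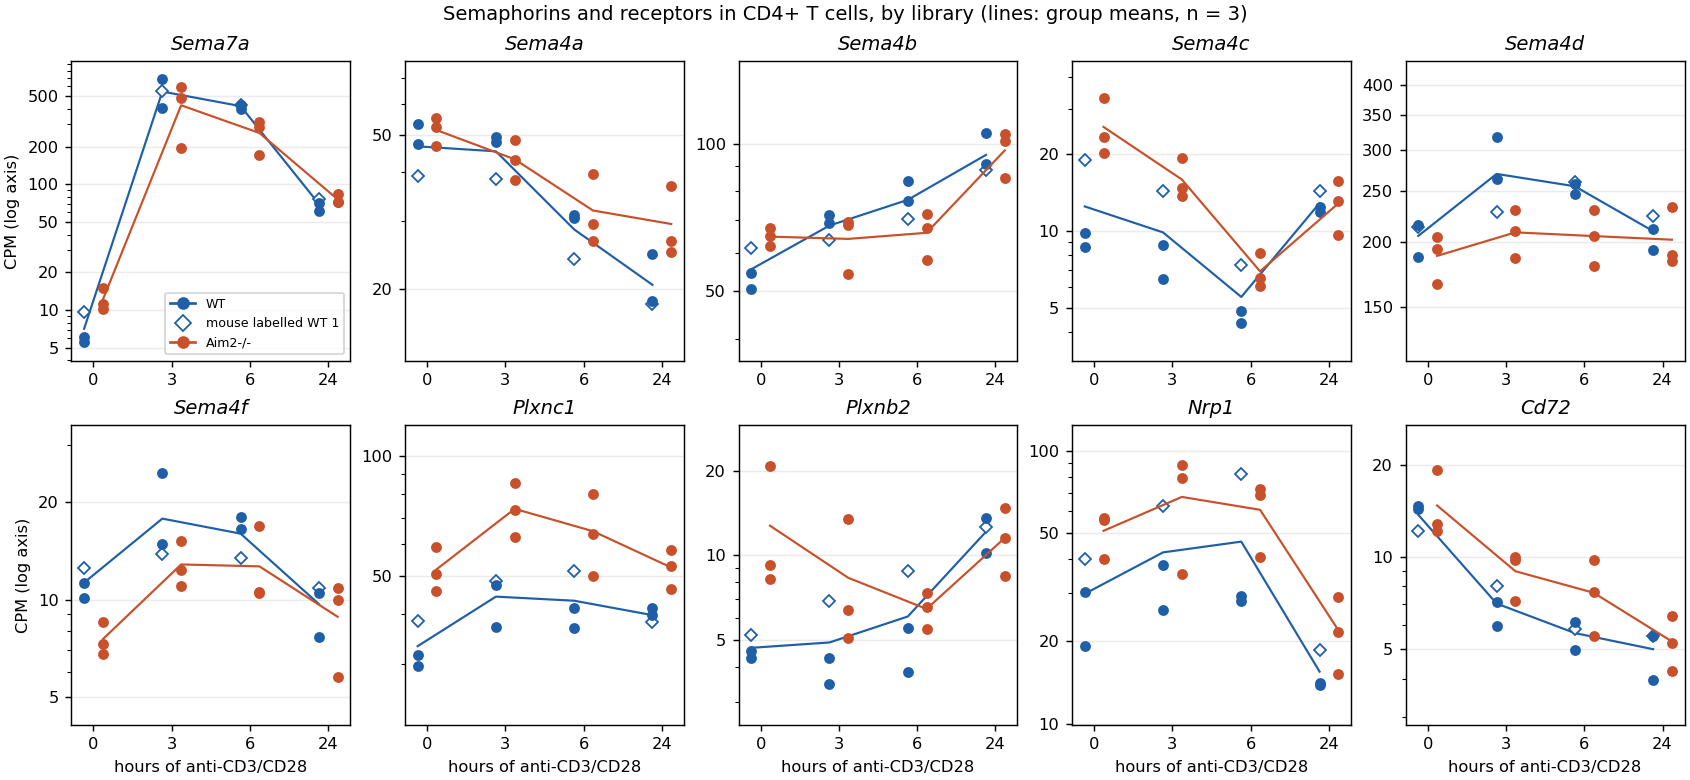
CPM on a log axis against hours of stimulation (times equally spaced, not to scale) for the 10 genes, 1 point per library; blue is WT, orange Aim2-/-, open diamonds are the mouse labelled WT 1, and lines join the means of 3 libraries. Sema7a goes from 5.57 to 15 CPM at 0 h to 172 to 682 CPM at 3 and 6 h, while Cd72 is lower in every stimulated library than in any resting one of the same genotype.

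Among the class 4 semaphorins, which are membrane proteins with an immunoglobulin domain, Sema4d and Sema4b were the most abundant. Sema4d, which is shed from T cells and acts on B cells and antigen-presenting cells, stayed within a narrow band: its group means ranged from 188 to 270 CPM over all 8 groups. In WT mice 1, 3 and 4 it read 213, 188 and 216 CPM at 0 h and 229, 264 and 317 CPM at 3 h, a log2 change of 0.39 ± 0.12. In Aim2-/- cells the log2 change at 3 h was 0.15 ± 0.12 and the 2 groups overlapped. Sema4b, which is less studied in T cells, had its highest group means at 24 h: WT means were 55.5, 68.1, 76.8 and 94.9 CPM at 0, 3, 6 and 24 h, and the log2 change over 24 h was 0.77 ± 0.11. The Aim2-/- means of Sema4b were 64.7, 64.0 and 65.8 CPM at 0, 3 and 6 h and 96.9 CPM at 24 h, so that the change lay in the last interval.

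Sema4a, a ligand expressed by dendritic cells and T helper 1 cells, went down with time. WT mice 1, 3 and 4 read 39.2, 53.4 and 47.4 CPM at 0 h and 18.2, 18.6 and 24.5 CPM at 24 h, with no overlap and a log2 change of -1.19 ± 0.18. The Aim2-/- log2 change over the same time was -0.81 ± 0.17, from 46.7 to 55.4 CPM at 0 h to 24.8 to 36.8 CPM at 24 h. At 6 h WT cells read 23.88 to 30.95 CPM and Aim2-/- cells 26.5 to 39.6 CPM, already below their resting ranges. The 6 dendritic cell markers were lower in sum at 24 h as well, from 12.9 to 18.6 CPM at 0 h to 2.52 to 3.39 CPM at 24 h in WT cells and from 22.4 to 50.8 to 3.78 to 9.63 CPM in Aim2-/- cells. Zbtb46 carried most of this sum (9.61 to 17.3 CPM in WT at 0 h and 2.31 to 3.09 CPM at 24 h). At 6 h the sums still overlapped those of rest, at 11.7 to 18.4 CPM in WT and 18.9 to 28.6 CPM in Aim2-/- cells. At 24 h 4 of the 6 were at or under the floor in all WT libraries and 3 of the 6 in all Aim2-/- libraries, and their part in the Sema4a values was not tested. In bulk RNA, fewer cells of a type and less RNA per cell cannot be told apart.

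Sema4c, known on T follicular helper cells and memory B cells, dipped in both genotypes. At 24 h its range overlapped that of rest again in WT cells, but stayed below it in Aim2-/- cells. In WT mice 1, 3 and 4 it read 18.9, 9.81 and 8.62 CPM at 0 h, 14.3, 8.78 and 6.44 CPM at 3 h, 7.31, 4.33 and 4.87 CPM at 6 h and 14.3, 11.8 and 12.4 CPM at 24 h. In Aim2-/- mice 1, 2 and 4 the values were 33.1, 23.4 and 20.1 CPM at 0 h, 8.21, 6.05 and 6.54 CPM at 6 h and 15.7, 9.62 and 13.1 CPM at 24 h. All 6 mice were lower at 3 and at 6 h than at their own 0 h. At 24 h WT mice 3 and 4 were above their resting value, while the mouse labelled WT 1 and the 3 Aim2-/- mice were below theirs. The log2 change over 24 h was 0.04 ± 0.30 in WT, where the ratio to 0 h was 0.754 in the mouse labelled WT 1 and 1.2 and 1.44 in the others, and -0.99 ± 0.30 in Aim2-/- cells. Sema4c overlaps a noncoding gene on the other strand, and whether the counting used strand is not given in the sources used here.

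Sema4f, a neuronal semaphorin that is little studied in T cells, was low, and all 6 mice were higher at 3 and at 6 h than at their own 0 h. It read 12.5, 11.3 and 10.1 CPM in WT mice 1, 3 and 4 at 0 h and 13.8, 14.8 and 24.6 CPM at 3 h. The log2 change at 3 h was 0.65 ± 0.24 in WT, which was 0.35 without the 3 h library of WT mouse 4 and 0.24 without that mouse, and 0.76 ± 0.25 in Aim2-/- cells. At 6 h WT cells read 13.4 to 17.9 CPM and Aim2-/- cells 10.5 to 16.9 CPM. The log2 change from 3 to 6 h was -0.15 ± 0.24 in WT and -0.02 ± 0.24 in Aim2-/- cells. At 24 h WT cells read 7.69 to 10.9 CPM and Aim2-/- cells 5.77 to 10.8 CPM, next to 6.82 to 8.56 CPM in resting Aim2-/- cells.

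Plxnc1 encodes plexin C1, the plexin that binds SEMA7A. In WT mice 1, 3 and 4 it read 38.5, 29.6 and 31.7 CPM at 0 h, 48.5, 37.1 and 47.4 CPM at 3 h, 51.5, 36.9 and 41.4 CPM at 6 h and 38.2, 39.9 and 41.5 CPM at 24 h. In Aim2-/- mice 1, 2 and 4 it read 59.1, 45.9 and 50.6 CPM at 0 h, 85.3, 62.4 and 73.1 CPM at 3 h, 80.2, 50.1 and 63.8 CPM at 6 h and 58.2, 46.3 and 52.9 CPM at 24 h. All 6 mice were higher at 3 and at 6 h than at rest, by at most 1.49-fold. The receptor thus moved little over the hours in which its ligand changed many-fold.

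Plxnb2, a plexin that binds SEMA4C and SEMA4D, was the lowest of the 10 genes in resting WT cells, at 5.20, 4.55 and 4.31 CPM in mice 1, 3 and 4. At 24 h WT cells read 12.6, 13.6 and 10.2 CPM, above all resting WT libraries, with a log2 change of 1.37 ± 0.39. In Aim2-/- mice 1, 2 and 4 it read 20.8, 8.22 and 9.25 CPM at 0 h, 7.33, 5.45 and 6.54 CPM at 6 h and 8.41, 14.7 and 11.5 CPM at 24 h. Mice 2 and 4 ended above their resting value and mouse 1 below it. A difference in response between the genotypes was not called for Plxnb2, as given below.

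Nrp1, the co-receptor found on regulatory T cells and dendritic cells, differed widely between mice of 1 genotype. WT mice 1, 3 and 4 read 40.0, 19.3 and 30.4 CPM at 0 h, 62.9, 26.0 and 38.2 CPM at 3 h, 81.8, 28.1 and 29.4 CPM at 6 h and 18.5, 13.9 and 14.1 CPM at 24 h. At every time the highest WT value was that of the mouse labelled WT 1. Aim2-/- mice 1, 2 and 4 read 55.9, 56.4 and 40.1 CPM at 0 h, 88.6, 79.2 and 35.2 CPM at 3 h, 72.6, 68.7 and 40.7 CPM at 6 h and 29.1, 21.6 and 15.2 CPM at 24 h. All 6 mice were lower at 24 h than at rest, with a log2 change of -0.95 ± 0.45 in WT and -1.21 ± 0.44 in Aim2-/- cells. The 6 regulatory T cell markers summed to 1053 to 1366 CPM in WT and 1422 to 1735 CPM in Aim2-/- cells at 0 h, and to 1363 to 1472 and 1511 to 1856 CPM at 24 h. These sums mix opposite courses. Il2ra, which activated T cells also express, read 84.5 to 124 CPM in WT cells at 0 h and 759 to 781 CPM at 24 h. Foxp3, the lineage factor of regulatory T cells, read 84.9 to 117 CPM at 0 h and 34.5 to 62.9 CPM at 24 h. Ikzf2 read 122 to 250 and 23.8 to 52.8 CPM, and Ctla4 355 to 502 and 78.1 to 136 CPM, so these were lower at 24 h as Nrp1 was. Izumo1r was higher at 24 h (107 to 140 and 162 to 209 CPM), and the Tnfrsf18 ranges overlapped (269 to 312 and 237 to 278 CPM). At 3 h Foxp3 read 208 to 329 CPM, above its resting range. The part of the 6 markers in the Nrp1 values was not tested.

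Cd72, an inhibitory B cell receptor that binds SEMA4D, was detected in every library. It read 12.2, 14.3 and 14.7 CPM in WT mice 1, 3 and 4 at 0 h, 5.93 to 8.05 CPM at 3 h, 4.96 to 6.13 CPM at 6 h and 3.96 to 5.52 CPM at 24 h. In Aim2-/- mice 1, 2 and 4 it read 19.3, 12.8 and 12.1 CPM at 0 h and 6.40, 4.23 and 5.23 CPM at 24 h. The log2 change over 24 h was -1.46 ± 0.23 in WT and -1.48 ± 0.23 in Aim2-/- cells, and all 6 mice were lower at each later time than at 0 h. In WT cells the 10 B cell markers summed to 4.57 to 7.09 CPM at 24 h (11.3 to 16.4 at 0 h). In Aim2-/- cells the sum was 7.84 to 36.1 CPM (19.1 to 52.9 at 0 h). At 3 h the sums overlapped those of rest, at 9.71 to 16.6 CPM in WT and 16.5 to 46.8 CPM in Aim2-/- cells. In WT cells Cd22 read 5.17 to 5.99 CPM at 0 h and 1.08 to 1.13 CPM at 24 h. Blk read 2.15 to 4.75 and 0.304 to 0.565 CPM. The ranges of Cd79b (1.81 to 2.3 and 1.64 to 3.04 CPM) and Fcer2a (0.05 to 0.517 and 0.103 to 2.36 CPM) overlapped. The part of the 10 markers in the Cd72 values was not tested. Cd72 overlaps Tesk1 on the other strand, so that without stranded counting reads of the 2 genes could not be separated.

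**Figure D3:**
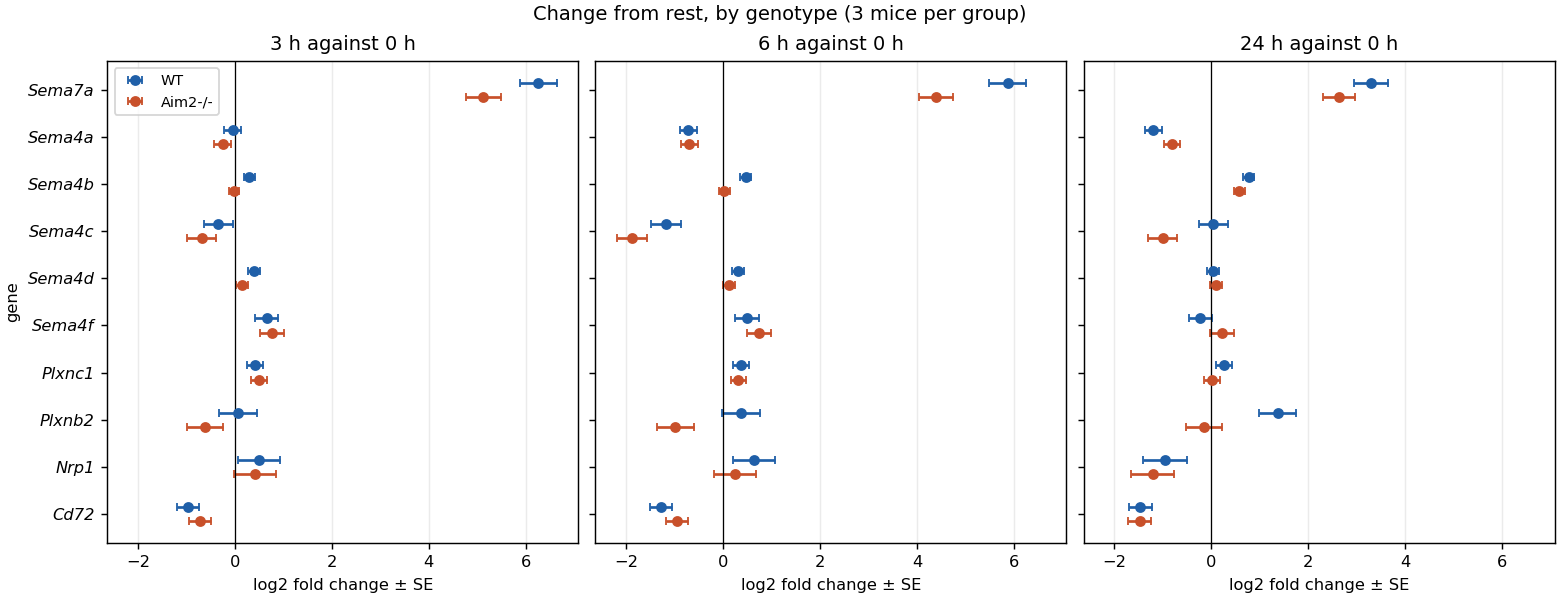
Fitted log2 fold change from 0 h with its SE (bars) for the 10 genes at 3, 6 and 24 h, blue for WT and orange for Aim2-/- (3 mice each). Sema7a stands at 6.26 and 5.13 at 3 h; all other genes lie within -1.88 and 1.37 at all times.

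The number of members past the threshold (adjusted p under 0.05 by edgeR's quasi-likelihood test, adjusted over all 15325 genes tested) is given beside the share of all tested genes past it. In WT cells 4 members were higher and 1 was lower at 3 h, where 32.5% of all genes were called, 16.1% higher and 16.3% lower. At 6 h 3 were higher and 3 lower, with 51.0% of all genes called, 26.3% higher and 24.8% lower. At 24 h 3 were higher and 2 lower, with 71.2% called, 36.5% higher and 34.7% lower. For Aim2-/- cells at 3 h 3 members were higher and 1 lower, with 30.6% of all genes called, 16.1% higher and 14.6% lower. At 6 h the counts were 2 higher and 4 lower, with 51.0% called, 28.3% higher and 22.6% lower, and at 24 h also 2 higher and 4 lower, with 70.1% called, 36.8% higher and 33.3% lower. Between 3 and 6 h 1 member, Sema4a, was lower in WT cells, with 25.6% of all genes called, 14.2% higher and 11.5% lower. Over the same hours 1 member, Sema4c, was lower in Aim2-/- cells, with 23.2% called, 13.4% higher and 9.85% lower. Between 6 and 24 h 3 were higher and 4 lower in WT cells, with 57.4% called, 29.6% higher and 27.8% lower. In Aim2-/- cells 2 were higher and 2 lower over that interval, with 54.1% called, 27.4% higher and 26.8% lower. Since the genes were picked with these contrasts known, nothing is read from these counts.

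Libraries of 1 mouse deviated together, so the fit with mouse as a block bears on these counts. With the block, 2 members were called between 3 and 6 h in each genotype, where 36.0% (WT) and 35.3% (Aim2-/-) of all genes were called. Between 6 and 24 h in Aim2-/- cells 8 were called in place of 4, with 62.7% of all genes. Plxnc1, called in the unblocked fit at 3 h in Aim2-/- cells only, was called with the block at 3, 6 and 24 h in WT cells and at 3 and 6 h in Aim2-/- cells, each time higher. With the block Nrp1 was also called in WT cells, with log2 changes of 0.54 at 6 h and -0.90 at 24 h. Single libraries moved some counts: at 3 h in WT cells 2 members were called without the 0 h library of WT mouse 3 and 2 without the 3 h library of WT mouse 4, and 3 without the 0 h library of WT mouse 4. For Aim2-/- cells at 3 h 2 were called without the 0 h library of mouse 1, the 0 h library of mouse 4 or the 3 h library of mouse 2. For 24 against 6 h in WT cells 4 were called without the 24 h or the 6 h library of WT mouse 3 or the 6 h library of WT mouse 4, and 3 without WT mouse 3. For the same step in Aim2-/- cells 2 were called without mouse 2. For 6 against 3 h in WT cells 2 were called without the 3 h library of WT mouse 4 or the 6 h library of the mouse labelled WT 1, and 0 without WT mouse 4. In Aim2-/- cells 2 were called without the 3 h or the 6 h library of mouse 1, 3 without mouse 1, and 0 without mouse 2 or mouse 4. The share of all genes called in these left-out fits is not given, so nothing is read from these moves.

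The comparison of genotypes asked whether loss of AIM2 went with other levels of these genes at each time. The members were selected with these levels known, so the adjusted p-values, taken over all genes tested, describe the fit and are not independent evidence. At 0 h 2 of the 10 members were called, both higher in Aim2-/- cells, where 4.95% of all tested genes were called, 3.03% higher and 1.92% lower. Plxnc1 was higher by a log2 difference of 0.64 ± 0.17 (adjusted p = 0.0324, edgeR) and Plxnb2 by 1.44 ± 0.39 (adjusted p = 0.0385, edgeR). All 3 Aim2-/- mice were above all 3 WT mice for both genes. Such a gap between the groups was seen for 7 of the 10 members at 0 h, 6 of them higher in Aim2-/- cells (Sema4b, Sema4c, Sema7a, Plxnb2, Plxnc1 and Nrp1) and Sema4f lower. Over all tested genes the groups did not overlap for 28.5%, with Aim2-/- higher for 14.1%. Sema4c had a log2 difference of 1.04 ± 0.30 (adjusted p = 0.0502, edgeR), and without the mouse labelled WT 1 it was 1.47 ± 0.25 (adjusted p = 0.00283, edgeR). It was smaller, and further from the threshold, without the 0 h library of Aim2-/- mouse 1 (0.78, adjusted p = 0.286), WT mouse 4 (0.80, adjusted p = 0.183) or WT mouse 3 (0.85, adjusted p = 0.186), all by edgeR.

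Without the mouse labelled WT 1 the differences of the receptors at 0 h were 0.76 for Plxnc1 (adjusted p = 0.0220, edgeR) and 1.52 for Plxnb2 (adjusted p = 0.0479, edgeR), so 3 members were called, with 5.46% of all genes. Nrp1 was at 0.77 ± 0.44 with all libraries (adjusted p = 0.297, edgeR) and at 1.03 without that mouse (adjusted p = 0.113, edgeR). Without the 0 h library of Aim2-/- mouse 1, Plxnb2 was at 0.87 (adjusted p = 0.301, edgeR) and Plxnc1 at 0.51 (adjusted p = 0.222, edgeR). Neither was called without the 0 h library of Aim2-/- mouse 4 (adjusted p = 0.0706 for Plxnc1 and 0.0536 for Plxnb2, edgeR), of WT mouse 3 (0.141 and 0.129) or of WT mouse 4 (0.109 and 0.118), and Plxnb2 was not called without the 0 h library of the mouse labelled WT 1 (adjusted p = 0.0644, edgeR).

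Myeloid, B cell and dendritic cell markers were higher in sum in Aim2-/- cells at 0 h. The sums of 5 CD8 and NK cell markers overlapped (27.9 to 33.6 CPM in WT and 24.2 to 37.3 CPM in Aim2-/- cells). Those of 5 erythroid markers overlapped as well (7.4 to 71.5 and 20.6 to 332 CPM). Lyz2, a lysozyme gene of macrophages and neutrophils, read 16.8 to 34.8 CPM in WT and 75.1 to 244 CPM in Aim2-/- cells. The sum of 10 myeloid markers was highest in Aim2-/- mouse 1, as were Plxnb2, Plxnc1 and Sema4c. Among the WT mice, whose sums spanned only 41.2 to 71.3 CPM, the highest sum (mouse 3) went with the lowest Plxnc1 (29.6 CPM). With 3 mice per genotype nothing is read from these orders. With scores of B cell and myeloid markers as terms of the model, the log2 difference at 0 h was 0.20 for Plxnc1 (adjusted p = 0.710, edgeR), 0.93 for Plxnb2 (adjusted p = 0.503, edgeR) and 0.30 for Sema4c (adjusted p = 0.782, edgeR). With dendritic cell scores added and the mouse labelled WT 1 left out, Sema4c was at 0.97 (adjusted p = 0.0376, edgeR), Plxnb2 at 1.28 (adjusted p = 0.325, edgeR) and Plxnc1 at 0.27 (adjusted p = 0.492, edgeR). The myeloid sums of the genotypes did not overlap at 0, 3, 6 or 24 h. The fits with scores, here and at the later times, therefore cannot separate these markers from the genotype.

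**Figure D4:**
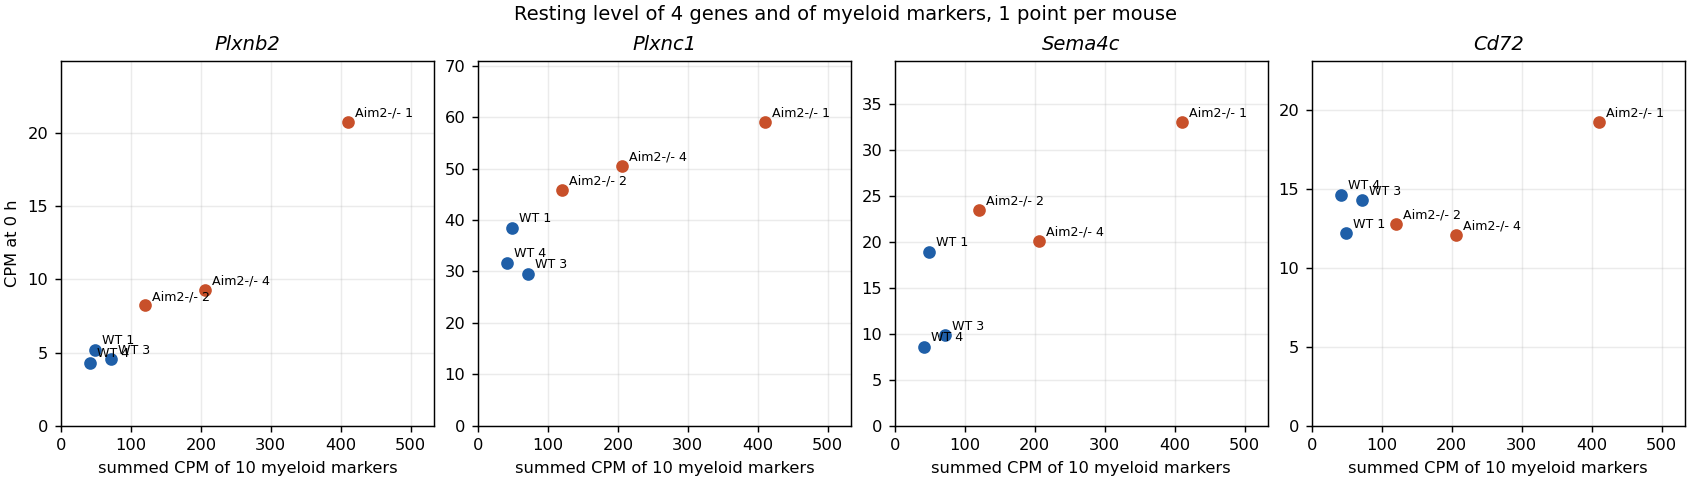
CPM at 0 h of 4 genes (vertical axes, from 0) against the summed CPM of 10 myeloid markers, 1 point per mouse, blue for WT and orange for Aim2-/-. Aim2-/- mouse 1 has 410 CPM of myeloid markers and the highest value in each panel, 20.8 CPM for Plxnb2 and 59.1 CPM for Plxnc1.

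At 3 h none of the 10 members was called by edgeR between the genotypes, where 0.294% of all genes were called, 0.248% higher and 0.0457% lower. By edgeR 3 had an unadjusted p under 0.05, DESeq2 called 1 and limma-voom called 1. Here and below, the share of all genes past an unadjusted p or called by DESeq2 or limma-voom is not given. Nothing is read from such counts. Plxnc1 was nearest, at 0.73 ± 0.16 (adjusted p = 0.0587, edgeR), with no overlap of the groups. Sema4c was at 0.69 (adjusted p = 0.287, edgeR). Without the mouse labelled WT 1, where 2.63% of all genes were called, Plxnc1 was called at 0.80 ± 0.18 (adjusted p = 0.0246, edgeR) and Sema4c at 1.06 ± 0.24 (adjusted p = 0.0292, edgeR). Plxnc1 was at 0.59 without WT mouse 3 (adjusted p = 0.436, edgeR) and 0.61 without Aim2-/- mouse 1 (adjusted p = 0.168, edgeR), and Sema4c at 0.45 without WT mouse 4 (adjusted p = 0.760, edgeR). Without Aim2-/- mouse 2 also 2 members were called, with 7.11% of all genes. The myeloid markers summed to 30.2 to 50.4 CPM in WT and 60.6 to 226 CPM in Aim2-/- cells at 3 h. With B cell and myeloid scores as terms Plxnc1 was at 0.44 (adjusted p = 0.519, edgeR) and Sema4c at 0.24 (adjusted p = 0.943, edgeR).

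At 6 h Plxnc1 was the 1 member called, at 0.58 ± 0.16 (adjusted p = 0.0260, edgeR), in a comparison in which 15.4% of all genes were called, 8.46% higher and 6.89% lower. Its groups overlapped, since the mouse labelled WT 1 read 51.5 CPM and Aim2-/- mouse 2 read 50.1 CPM. Without the mouse labelled WT 1 the difference was 0.72 ± 0.18 (adjusted p = 0.0216, edgeR), and without the 6 h library of Aim2-/- mouse 1 it was 0.39 (adjusted p = 0.185, edgeR). The call was also lost without the 6 h library of Aim2-/- mouse 4 (adjusted p = 0.0582), WT mouse 3 (0.110) or WT mouse 4 (0.0839), all by edgeR. Without the 6 h library of Aim2-/- mouse 2 there were 2 members called, and without that mouse 3, where 25.4% of all genes were called. Sema7a was lower in all 3 Aim2-/- libraries than in all 3 WT libraries at 6 h, by -0.71 ± 0.30 (adjusted p = 0.105, edgeR), and Sema4d likewise by -0.32 ± 0.12 (adjusted p = 0.0798, edgeR). Without the mouse labelled WT 1 these were -0.69 for Sema7a (adjusted p = 0.186, edgeR) and -0.30 for Sema4d (adjusted p = 0.139, edgeR). Groups without overlap were found for 2 of the 10 members and for 35.6% of all genes.

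The 10 myeloid markers summed to 34.0 to 57.0 CPM in WT and 77.7 to 250 CPM in Aim2-/- cells at 6 h. With B cell and myeloid scores as terms, Plxnc1 at 6 h was at 0.29 (adjusted p = 0.412, edgeR). The 5 activation genes summed to 2618 to 2901 CPM in WT and 1599 to 2144 CPM in Aim2-/- cells at 6 h, also with no overlap. The activation genes were in no score, and their part in the Sema7a and Plxnc1 values was not tested. The fit with scores cannot separate the myeloid markers from the genotype.

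At 24 h none of the 10 members was called by edgeR, with 2 at an unadjusted p under 0.05 and 0.594% of all genes called, 0.587% higher and 0.00653% lower; DESeq2 and limma-voom also called none. Plxnc1 was at 0.40 ± 0.16 (adjusted p = 0.186, edgeR) and Sema4a at 0.52 ± 0.18 (adjusted p = 0.124, edgeR), and these 2 had groups that did not overlap (21.3% of all genes). Without Aim2-/- mouse 2, where 17.1% of all genes were called, both were called, Sema4a at 0.63 (adjusted p = 0.0397, edgeR) and Plxnc1 at 0.48 (adjusted p = 0.0393, edgeR). Without Aim2-/- mouse 1 they were at 0.33 (adjusted p = 0.626, edgeR) and 0.32 (adjusted p = 0.623, edgeR), and without the mouse labelled WT 1 at 0.45 (adjusted p = 0.218, edgeR) and 0.37 (adjusted p = 0.282, edgeR). The myeloid markers summed to 17.9 to 30.7 CPM in WT and 37.4 to 203 CPM in Aim2-/- cells at 24 h. With B cell and myeloid scores as terms Sema4a was at 0.33 and Plxnc1 at 0.06, both with an adjusted p of 1 (edgeR). Sema7a, Sema4b, Sema4c, Sema4d and Plxnb2 differed by at most 0.12 in either direction at this time, with SE between 0.11 and 0.37.

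**Figure D5:**
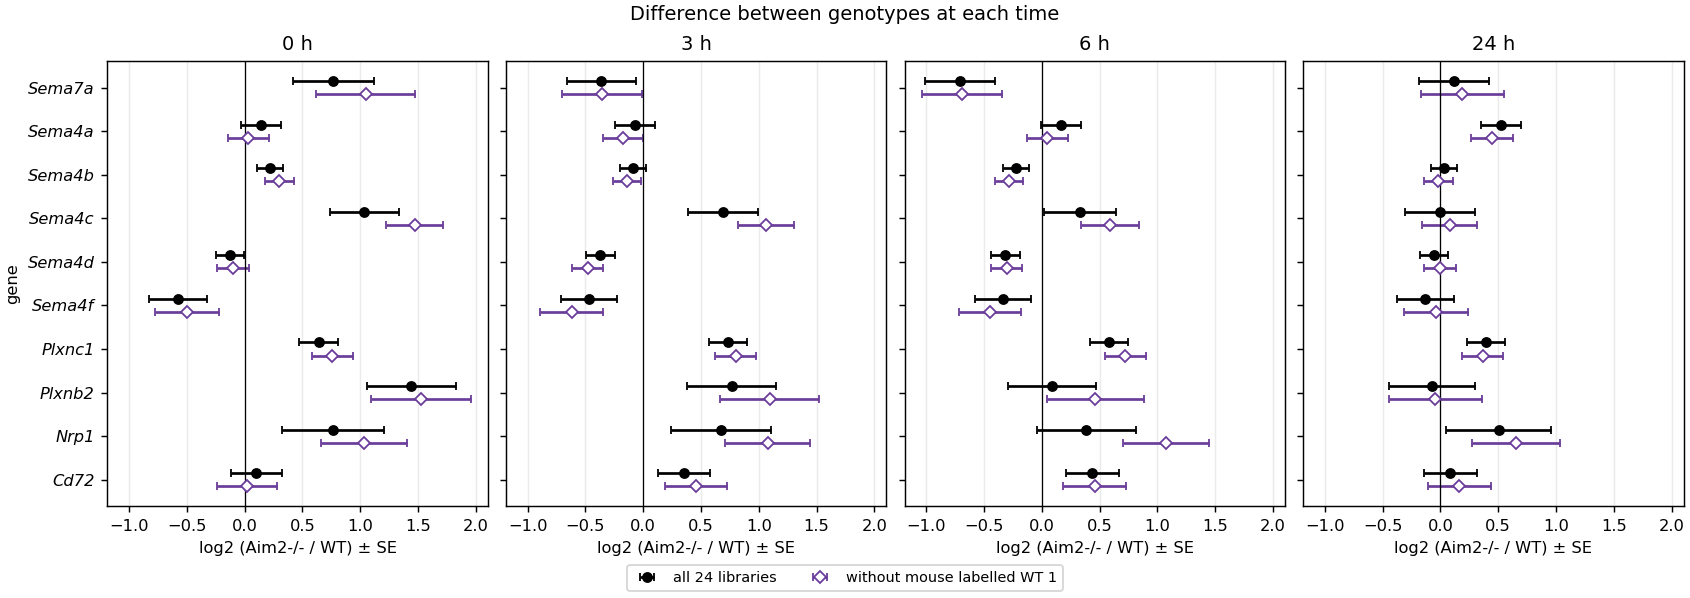
Log2 difference between Aim2-/- and WT cells with its SE for the 10 genes at 0, 3, 6 and 24 h; filled circles use all 24 libraries and open diamonds leave out the mouse labelled WT 1. Plxnc1 lies above 0 at all 4 times, from 0.40 to 0.73 with all libraries, and Sema4c at 0 h goes from 1.04 to 1.47 without that mouse.

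Whether the response to stimulation differed between the genotypes was tested as an interaction. None of the 10 members was called by edgeR in the unblocked fit at 3, 6 or 24 h. Of all genes 0%, 0.124% (0.0783% higher and 0.0457% lower) and 0% were called there. At these times 1, 3 and 2 members had an unadjusted p under 0.05. With mouse as a block, which uses the pairing of times, 0.0522%, 4.65% and 2.96% of all genes were called. This fit called no member at 3 or 6 h. At 6 h it gave -0.45 for Sema4b (adjusted p = 0.0507, edgeR), -0.73 for Sema4c (adjusted p = 0.0645, edgeR) and -1.55 for Sema7a (adjusted p = 0.0972, edgeR). In the unblocked fit the Sema7a interaction over 6 h was -1.48 ± 0.46 on the log2 scale, Aim2-/- minus WT (adjusted p = 0.175, edgeR). DESeq2 called it (adjusted p = 0.0201). Without the mouse labelled WT 1 the Sema7a value was -1.74 ± 0.55 (adjusted p = 0.240, edgeR), and without Aim2-/- mouse 1 it was -1.08 (adjusted p = 0.413, edgeR). Over 24 h the interaction was -1.04 ± 0.42 for Sema4c (adjusted p = 0.333, edgeR), which was called with mouse as a block (-1.11, adjusted p = 0.0111, edgeR), where 2.96% of all genes were called. Without the mouse labelled WT 1 it was -1.39 (adjusted p = 0.0994, edgeR). For Plxnb2 the 24 h interaction was -1.52 ± 0.54 (adjusted p = 0.262, edgeR) and -1.57 without that mouse (adjusted p = 0.272, edgeR). It was -0.79 without Aim2-/- mouse 1 (adjusted p = 0.859, edgeR) and -0.95 without the 0 h library of that mouse alone (adjusted p = 0.613, edgeR).

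The rest of the family gives the setting of these genes. Of 27 other semaphorins, plexins, neuropilins and further receptors, 16 passed the filter on low counts; the secreted class 3 semaphorins other than Sema3f and both class 5 genes were among the 11 that did not. At 24 h in WT cells 5 of the 16 rose and 4 fell, with a median log2 change of -0.14 against -0.01 over all tested genes. Of all tested genes 71.2% were called there, 36.5% higher and 34.7% lower. Timd2 (TIM-2), a receptor of SEMA4A, had no counts in the 3 resting WT libraries and read 6.84, 4.11 and 6.21 CPM at 24 h, at least 37.5-fold higher against the floor of 3 counts per library. For Aim2-/- mice 1, 2 and 4 the gene read 9.14, 4.63 and 5.79 CPM at 24 h, at least 44.4-fold above the floor. Plxna3, a plexin of class 3 semaphorin signalling, rose by 0.85 ± 0.18 to 11.4 to 12.3 CPM, and Sema6b rose from at most 3 counts to 0.308 to 1.11 CPM, at least 4.01-fold against the floor.

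Itga1, the alpha chain of VLA-1, the integrin that SEMA7A binds, fell by 3.48 ± 0.44 on the log2 scale at 24 h, from 4.13 to 4.92 CPM to 0.360 to 0.456 CPM in WT cells. Sema6d, a ligand of plexin A1 in T cell activation, fell by 2.94 ± 0.47, from 6.94 to 11.8 CPM to 0.770 to 1.72 CPM. Plxna4, a plexin, had 9, 5 and 1 counts in the 3 WT libraries at 0 h and none at 24 h. In Aim2-/- cells 4 of the 16 rose and 6 fell at 24 h, where 36.8% of all tested genes were higher and 33.3% lower. Between the genotypes 2 of the 16 were called at 6 h, where 15.4% of all tested genes were called. None was called by edgeR at 0, 3 and 24 h, where 4.95%, 0.294% and 0.594% of all tested genes were called. At these times 6, 7 and 5 of the 16 had an unadjusted p under 0.05, and DESeq2 called 3 at 0 h and 1 at 24 h. Plxna1 was lower in Aim2-/- cells at 6 h by -0.54 ± 0.11 (adjusted p = 0.00854, edgeR), with 25.5, 25.9 and 22.9 CPM in WT mice 1, 3 and 4 and 16.6, 17.8 and 16.7 CPM in Aim2-/- mice 1, 2 and 4. It was not called without the 6 h library of Aim2-/- mouse 1 (-0.52, adjusted p = 0.0626, edgeR) or without WT mouse 3 (-0.54, adjusted p = 0.0681, edgeR). Met, the hepatocyte growth factor receptor that pairs with class B plexins, was higher (adjusted p = 0.0316, edgeR) but near the floor, with 4, 0 and 0 counts in WT and 27, 10 and 14 counts in Aim2-/- libraries. It was called in 10 of 21 alternatives, with log2 differences of 1.80 to 7.02 (the highest without the mouse labelled WT 1, where the other WT libraries held no count, so that the fitted value is no bound) and adjusted p up to 0.283 (edgeR, marker scores as terms), and not without Aim2-/- mouse 1 or 4 or WT mouse 3 or 4.

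Of 31 genes that carry plexin signals inside the cell, 28 were tested, and at 24 h in WT cells 7 rose and 15 fell, with a median log2 change of -0.28. As given above, 71.2% of all tested genes were called there, 36.5% higher and 34.7% lower. The largest rises were of Ptpn6 (SHP-1), a phosphatase that binds CD72, by 2.65 ± 0.12 to 441 to 496 CPM, of Cfl1 (cofilin), which severs actin filaments, by 1.81 ± 0.14 to 1497 to 1602 CPM, and of Gipc1, an adaptor of NRP1, by 1.32 ± 0.10 to 52.1 to 55.2 CPM. The largest falls were of Pak1, a kinase downstream of Rac, by 3.46 ± 0.16, from 81.0 to 83.6 CPM to 6.73 to 8.37 CPM, and of Arhgef11, a guanine nucleotide exchange factor bound by class B plexins, by 2.00 ± 0.21 to 16.0 to 19.4 CPM. Dpysl5, a collapsin response mediator gene, also fell, but held at most 15 counts in a resting and 3 in a 24 h library.

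The genes whose log2 CPM over the 24 libraries ran most like each member are given as a description. All 24 points share 6 mice and 4 times. For Sema7a these were Gbp5 (r = 0.978), Gbp11 (0.975) and Egr1 (0.975), interferon-inducible GTPase genes and an immediate early gene. For Nrp1 they were Tiam1 (0.954), Serpinb6a (0.947) and Cyfip1 (0.939), for Cd72 Pde4a (0.954), C9orf72 (0.949) and Hacd3 (0.944), and for Sema4a Nudt13 (0.947), Ppp1r12c (0.946) and Ccnl2 (0.940). For Sema4b they were Rpl27 (0.917), Tuba4a (0.916) and Med17 (0.915), for Sema4f Frmd6 (0.904), Pikfyve (0.882) and Prkcq (0.876), and for Plxnc1 they included Tnfaip2 (0.895) and Papss2 (0.890). Sema4c was nearest to Mapkapk2 (0.881), Camk2n2 (0.874) and Vcl (0.842), and Plxnb2 to Sowahc (0.874), St14 (0.872) and Ctsb (0.860). Sema4d, with its narrow range, had the lowest best match of the 10, Nsd1 (0.868), followed by Lyst (0.846) and Zfp407 (0.835). Among the members themselves Sema4b and Cd72 ran most opposite, at r = -0.789.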

How the data were processed

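RNA of 24 libraries (6 mice, 4 times) was sequenced by the authors as stranded single-end reads and mapped with STAR to GRCm38 with the Ensembl 94 annotation; the deposited values are raw read counts per gene, 1 column per library. The counting options were not given in the sources used here. Symbols and positions came from the reference annotation, which held 54409 of the 54446 identifiers. Counts were tested with edgeR 4.0.16 (R 4.3.3): TMM factors, filterByExpr with a minimum count of 10, 1 fit over all 8 groups, the robust quasi-likelihood F test and Benjamini-Hochberg adjustment over 15325 genes, with a threshold of 0.05. The genes tested held 99.93% of the counts, and the common dispersion of 0.0346 corresponds to a biological coefficient of variation of 18.6%. SE is the log2 change divided by the square root of F. The script was tested on simulated counts.

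The members and gene lists were chosen with earlier results of these data known. Named beside the 10 members were the 3 genes with the highest Pearson r to each, up to 3 rises and 3 falls of the family and intracellular lists at 24 h in WT cells, and family genes called between the genotypes. A gene that this rule names for Plxnc1 is not reported here. DESeq2 1.42.0, limma-voom (limma 3.58.1), other scalings and filters, marker scores and left-out libraries were alternatives; fits without robust estimation and with dendritic markers were added after seeing the data.

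Samples were grouped by their labels. The labels give the mouse of each library, so libraries of 1 mouse are paired across times: deviations from the group means correlated at 0.139 to 0.567 in 36 same-mouse pairs and at -0.432 to 0.0742 in 72 pairs of other mice. The fit with the mouse as a replicate block is printed for some of the calls it changes, and the genes of the others are named in the closing section.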

Additional observations from a re-analysis of the deposited data

How the results depend on the processing

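Of 1315 alternative values of 66 single-gene results, 1114 kept their direction and side of the threshold, 160 lost and 38 gained a call and 3 changed sign. The 3 were the genotype difference of Sema4f at 0 h, at 0.114 with B cell and myeloid marker scores as terms and 0.143 with dendritic markers added and the mouse labelled WT 1 left out, and that of Plxnc1 at 24 h, at -0.0922 in the latter fit; the cause was not tested. Library totals in place of TMM moved the median log2 change of all genes to as much as 0.198 (Aim2-/-, 6 h), 0.142 below 0 (-0.142, WT, 24 against 6 h) and 0.104 (genotype, 6 h), and turned no direction of a member given here. Between genotypes at 0 h 3 members in place of 2 were called with RLE factors, a mean of 1 CPM, DESeq2 and without robust estimation, the added member being Sema4c, and limma-voom called 2 with Sema4c (adjusted p = 0.0249) but not Plxnb2 (0.0583). Nothing is read from the counts below, since the share of all genes called is given for few of these fits. Larger moves of the counts of members called were as follows. RLE factors gave 3 at 3 h in WT cells and 2 in each genotype for 6 against 3 h. No filter gave 3 at 3 h in WT cells, 2 for 6 against 3 h in Aim2-/- cells, and 1, 1 and 2 between genotypes at 0, 3 and 6 h. A mean of at least 1 CPM gave 2 for 6 against 3 h in each genotype and 2 between genotypes at 6 h. The mouse as a replicate block gave 2 and 2 for 6 against 3 h, 8 for 24 against 6 h in Aim2-/- cells and 1 for the 24 h interaction. The calls it changed that are not printed above were of Sema4f, Sema4c, Sema4d, Sema4a, Cd72 and Plxnb2, and of Plxnc1 for 24 against 6 h in Aim2-/- cells. The mouse number as a block between genotypes gave 4, 3, 4 and 2 at 0, 3, 6 and 24 h, but equal numbers do not pair the genotypes (8 pairs, correlations -0.165 to 0.268). DESeq2 gave 2 and 3 for 6 against 3 h in WT and Aim2-/- cells, 1 and 3 between genotypes at 3 and 6 h and 1 for the 6 h interaction, and limma-voom 3 at 3 h in WT cells and 1 between genotypes at 3 h. Marker scores as terms gave 0 between genotypes at 0 and at 6 h, and with the mouse labelled WT 1 left out 1 and 0. A fit of only the libraries compared gave 1 at 0 h and 0 at 6 h.

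For the 16 other family genes the counts between genotypes at 0 h (0) became 1 with RLE factors, a mean of 1 CPM, limma-voom, only the libraries compared or scores without the mouse labelled WT 1, 3 with DESeq2 and 8 with the number block. At 3 h (0) they became 6 with that block and 1 with scores without that mouse. At 6 h (2) they became 1 without a filter, at 1 CPM and with scores without that mouse, 0 with scores, 4 with DESeq2 and 8 with the number block, and at 24 h (0) 1 with DESeq2 and 5 with that block. At 3 h in Aim2-/- cells (2) they became 1 with library totals, no filter or only the libraries compared, and 4 with the mouse block, which gave 8 at 6 h in WT cells (5). Leaving out 1 library or mouse gave 2 to 5, 4 to 6 and 5 to 6 members at 3, 6 and 24 h in WT cells and 2 to 4, 4 to 6 and 4 to 6 in Aim2-/- cells. It gave 0 to 2 and 3 to 6 for the steps in WT cells, 0 to 3 and 2 to 5 in Aim2-/- cells, and 0 to 3, 0 to 2, 0 to 3 and 0 to 2 between genotypes. No interaction was called in any of these (0 to 0). For the other family genes it gave 0 to 4, 0 to 1, 0 to 4 and 0 to 4 between genotypes, 1 to 2, 3 to 5 and 7 to 10 in WT cells and 0 to 2, 5 to 6 and 9 to 12 in Aim2-/- cells. These counts too stand without the share of all genes called in each fit, and nothing is read from them.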
